A study of Homo sapiens with 6 samples.

Results

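Beta-catenin, its scaffold and nuclear partners and the genes that feed back on WNT signaling were followed in SiHa cells with and without extra BRCA1. SiHa is an established human cell line from a cervical squamous cell carcinoma. The OV-BRCA1 group (3 samples) was given the plasmid GV230-BRCA1, and the NC group (3 samples) the plasmid GV230 without BRCA1. Both groups were transfected with a lipid reagent, and mRNA was sequenced 48 h later. The plasmid was delivered transiently into a single cell line, and what drives BRCA1 from it was not given in the sources used here. The 10 genes were CTNNB1, AXIN1, AXIN2, LEF1, TCF7, TCF7L1, TCF7L2, NKD1, RNF43 and DKK1. They were chosen by their known role, with earlier results of these data known. They are 10 of the 58174 genes with values, and 7 of them were among the 16321 genes that were tested. The unit is FPKM, the fragments of a transcript per kilobase of its length and of the mapped fragments of the sample, summed over the transcripts of a gene. Because FPKM is per length, levels can be set side by side between genes.

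In canonical WNT signaling, a WNT ligand binds a Frizzled receptor together with LRP5 or LRP6. Without a ligand, beta-catenin is held by the scaffolds AXIN and APC, phosphorylated by CK1 and GSK3 and degraded. With a ligand, beta-catenin is spared, enters the nucleus and acts on DNA through 4 TCF/LEF factors. Among the genes then transcribed are inhibitors of the pathway itself, of which AXIN2, NKD1 and RNF43 are widely used as its readout, and DKK1 belongs to the secreted ones. Beta-catenin is regulated as a protein, which mRNA sequencing does not measure.

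BRCA1 stood at 35.7, 40.8 and 34.9 FPKM in the OV-BRCA1 samples and at 20.1, 14.9 and 21.7 FPKM in the NC samples, so the labels and the overexpressed gene go together. Reads from the plasmid and from the cell's own gene were not separated. The estimated depth of the OV-BRCA1 samples was 14.1 to 16.8 M fragments, and that of the NC samples 16.2 to 19.9 M. Mitochondrial genes took 14.8% to 17.2% of all FPKM in the OV-BRCA1 group and 21.0% to 23.2% in the NC group, and the part of this difference in the results was not tested beyond the scaling to nuclear protein-coding genes. Of the epithelial markers, KRT17 was at 953 to 1131 FPKM in the OV-BRCA1 group and at 1425 to 1442 FPKM in the NC group and was called lower. KRT8 (354 to 385 against 316 to 339 FPKM), KRT18 (249 to 256 against 188 to 199 FPKM), KRT6A (0.979 to 1.19 against 0.028 to 0.250 FPKM) and EPCAM (5.93 to 7.65 against 2.11 to 3.01 FPKM) were called higher, and their part in the results was not tested. KRT6A had passed the filter of 0.5 FPKM in 3 samples through the OV-BRCA1 group alone. The squamous markers KRT5, KRT14 and TP63 were under 1 FPKM in all samples. Of the white blood cell markers, CD14 was at 6.65 to 9.04 FPKM in the OV-BRCA1 group and at 17.8 to 20.4 FPKM in the NC group. It was called lower (log2 fold change -1.22, limma, Benjamini-Hochberg adjusted p = 0.000594). PTPRC was listed at 0 in all samples, and CD3E and LYZ were under 1 FPKM. Endothelial markers summed to 0.690 to 1.48 FPKM and fibroblast markers to 0.109 to 0.348 FPKM over all samples. All samples came from a single cell line, and in bulk samples such as these, a change in a part of the cells and a change in all of them cannot be told apart.

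The 10 genes covered a wide range of levels. DKK1 was the highest with a mean of 292 FPKM in the OV-BRCA1 group and 223 FPKM in the NC group, which placed it 175th and 239th among all genes. CTNNB1 came next near 79 FPKM, followed by AXIN1 near 15 and TCF7L2 near 7 FPKM. TCF7 and TCF7L1 lay between 0.900 and 3.52 FPKM in single samples, and RNF43 between 0.554 and 1.08 FPKM. The values of TCF7 and TCF7L1 overlapped in the NC group, so their order there did not exceed their spread. In the OV-BRCA1 group TCF7 was above TCF7L1 in all 3 samples. AXIN2, NKD1 and LEF1 were under 0.12 FPKM in every sample. Thus 2 of the 3 feedback genes used as a readout of the pathway were close to absent in both groups.

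**Figure D1:**
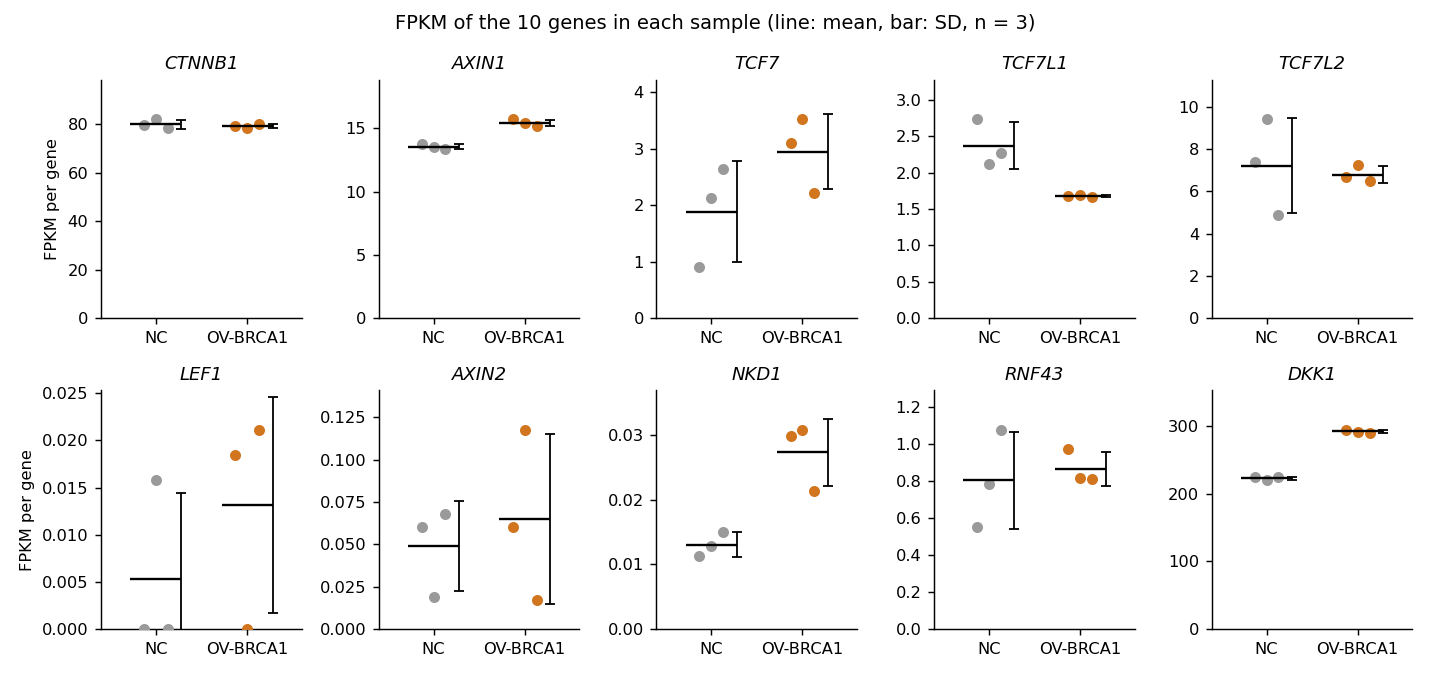
FPKM of each of the 10 genes in the 3 NC samples (grey) and the 3 OV-BRCA1 samples (orange), with the mean as a line and the SD as a bar. Each panel has its own FPKM axis starting at 0. DKK1 (290.0 to 293.6 against 220.3 to 223.9 FPKM) and AXIN1 separate upwards and TCF7L1 downwards, CTNNB1 stays between 78.2 and 81.8 FPKM, and the LEF1, AXIN2 and NKD1 panels show values under 0.12 FPKM.

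Between the groups, DKK1 and AXIN1 rose and TCF7L1 fell, and the other 4 tested genes did not pass the test. The test was limma with Benjamini-Hochberg adjustment on log2(FPKM + 1), a scale that makes changes of weakly expressed genes look smaller, and p-values were adjusted over all tested genes. A gene was called at an adjusted p-value below 0.05. Of all tested genes 35.3% were called, 16.4% as higher and 18.9% as lower in the OV-BRCA1 group. The 3 called among the 7 tested genes (2 higher, 1 lower) stand beside that share, which is too close to set them apart from the other genes. The study's criterion for DEGs adds an absolute log2 fold change above 1, which 3.99% of all tested genes and none of the 7 met. The first of these depends on the pseudocount, since 651 genes met the criterion and 1280 did with a pseudocount of 0.1. In 3 of the 7 genes the groups had no overlapping samples, against 50.8% of all tested genes. The median log2 fold change of the 7 was 0.06, and that of all tested genes was -0.04. An exact two-sided permutation test of one gene with 3 samples against 3 cannot go below 0.1.

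**Figure D2:**
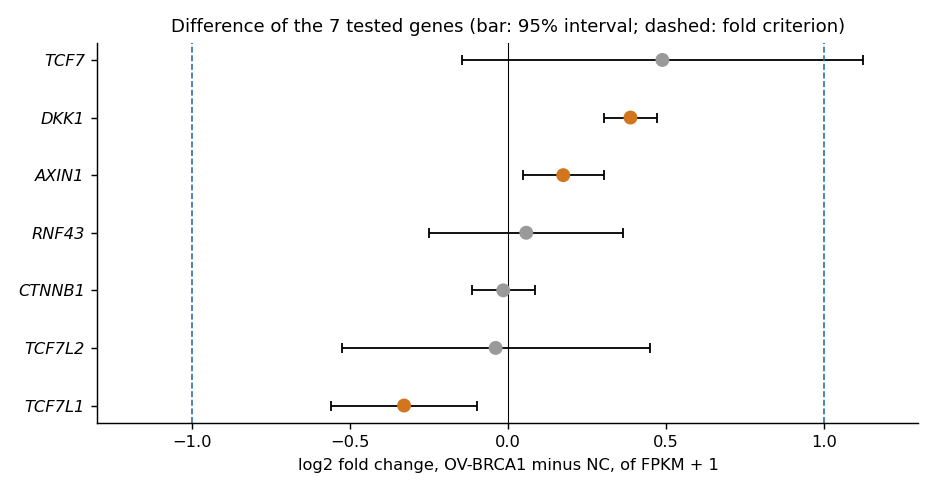
Log2 fold change (OV-BRCA1 minus NC, of FPKM + 1) of the 7 tested genes with its 95% interval. Orange points passed the adjusted p-value of 0.05 and grey points did not, and the dashed lines mark the fold change of the DEG criterion. DKK1, AXIN1 and TCF7L1 exclude 0, CTNNB1 has a narrow interval from -0.12 to 0.09, and TCF7 has the widest, from -0.15 to 1.13.

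CTNNB1 (ENSG00000168036, chromosome 3, 41194741 to 41260096, plus strand, GRCh38) encodes beta-catenin, which serves both WNT signaling and the adherens junction. It was at 79.0, 78.2 and 79.8 FPKM in the OV-BRCA1 samples and at 79.4, 81.8 and 78.3 FPKM in the NC samples. The groups overlapped, and the spread was small in both, with means of 79.0 ± 0.806 and 79.9 ± 1.81 FPKM (SD, n = 3). The log2 fold change was -0.01 with a 95% interval from -0.12 to 0.09, so these samples limit a change in CTNNB1 mRNA to that range (limma, Benjamini-Hochberg adjusted p = 0.808). Of all tested genes, 3.1% had a smaller absolute change. The sign of this small value turned with scaling by the median of ratios and without NC replicate 2.

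AXIN1 (ENSG00000103126, chromosome 16, 287440 to 352673, minus strand) encodes the scaffold that brings beta-catenin to its kinases and is expressed without need of WNT input. It was at 15.7, 15.4 and 15.2 FPKM in the OV-BRCA1 samples and at 13.8, 13.5 and 13.4 FPKM in the NC samples. All OV-BRCA1 samples lay above all NC samples, and the means were 15.4 ± 0.254 and 13.6 ± 0.198 FPKM (SD, n = 3), a ratio of 1.14. The log2 fold change was 0.18 (SE 0.053), with an adjusted p-value of 0.0448 from limma with Benjamini-Hochberg adjustment. The call was lost whichever of the 6 samples was left out, with adjusted p-values of 0.0796 (without OV-BRCA1 replicate 3) to 0.114 (without NC replicate 3), while the log2 fold change stayed between 0.16 and 0.19. Scaled to nuclear protein-coding genes, which removes the mitochondrial share, the log2 difference of AXIN1 was 0.14 (limma, Benjamini-Hochberg adjusted p = 0.0922).

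The TCF/LEF factors bind the same short DNA motif, and each can act with beta-catenin as an activator or with TLE proteins as a repressor. TCF7L1 (ENSG00000152284, chromosome 2, 85133410 to 85310388, plus strand) is known mainly as a repressor. It was at 1.68, 1.69 and 1.66 FPKM in the OV-BRCA1 samples and at 2.73, 2.12 and 2.27 FPKM in the NC samples. The OV-BRCA1 samples were almost equal and all below the NC samples, with means of 1.68 ± 0.015 and 2.37 ± 0.319 FPKM (SD, n = 3) and a ratio of 0.707. TCF7L1 fell by 0.33 on the log2 scale (SE 0.096, limma, Benjamini-Hochberg adjusted p = 0.0393). Behind these values stood an estimated 63.5 to 128 fragments per sample. The call was kept without NC replicate 2 (adjusted p = 0.0481) and lost without any one of the other 5 samples (0.0797 to 0.0989), and it was also lost without the filter on low values and with scaling by the median of ratios.

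TCF7 (ENSG00000081059, chromosome 5, 134114711 to 134151865, plus strand) encodes TCF1, known as a T cell factor and itself a WNT target. It was at 3.11, 3.52 and 2.22 FPKM in the OV-BRCA1 samples and at 0.900, 2.13 and 2.64 FPKM in the NC samples. NC replicate 1 was low, and OV-BRCA1 replicate 3 lay within the range of the NC group. The log2 fold change of 0.49 had an interval from -0.15 to 1.13 and did not pass the test (limma, Benjamini-Hochberg adjusted p = 0.198). Without NC replicate 1 it was 0.21. TCF7 shares its last 2931 bases with SKP1 on the opposite strand, which stood at 121 to 178 FPKM. How reads in the shared stretch were assigned was not given in the sources used here, but all 16 TCF7 transcripts above 0 end before it. The most abundant of them, TCF7-201, was at 2.24, 2.44 and 1.05 FPKM against 0.432, 1.67 and 2.32 FPKM, which overlapped as the gene did.

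LEF1 (ENSG00000138795, chromosome 4, 108047545 to 108168956, minus strand) encodes the factor that completes the family. Of its 21 transcripts 1, LEF1-202, had any value above 0. The gene stood at 0.018, 0 and 0.021 FPKM in the OV-BRCA1 samples and at 0, 0.016 and 0 FPKM in the NC samples, or at most 1.1 estimated fragments in a sample. A level of LEF1 was therefore not detectable at this depth, and it was not tested.

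TCF7L2 (ENSG00000148737, chromosome 10, 112950250 to 113167678, plus strand) was the highest of the 4 factors in every sample. It encodes TCF4, the main partner of beta-catenin in epithelial cells. It was at 6.66, 7.22 and 6.50 FPKM in the OV-BRCA1 samples and at 7.38, 9.40 and 4.89 FPKM in the NC samples. The NC samples enclosed all OV-BRCA1 samples, and the log2 fold change was -0.04 with an interval from -0.53 to 0.45 (limma, Benjamini-Hochberg adjusted p = 0.896). Without NC replicate 2, the highest sample, it was 0.15.

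At the level of single transcripts, 123 were listed for the 10 genes, 78 had a value above 0, 23 were tested and 2 were called, one of DKK1 and one of TCF7L2. Of all 50925 tested transcripts 5.47% were called, or 2788, a number that fell to between 1068 and 1445 with any one sample left out and to 1508 without the filter on low values. TCF7L2-223 is a protein-coding transcript of 1755 bases of which 1752 are coding, so its model holds almost no untranslated sequence. It was at 2.74, 3.41 and 2.63 FPKM in the OV-BRCA1 samples and at 0.357, 0 and 0.98 FPKM in the NC samples. It took 40.4% to 47.2% of the TCF7L2 value in the OV-BRCA1 group and 0% to 20% in the NC group, without overlap. The log2 fold change was 1.49 (SE 0.276, limma, Benjamini-Hochberg adjusted p = 0.0422). The call was kept without NC replicate 3 (adjusted p = 0.0385) and lost without any one of the other 5 samples (0.0885 to 0.125). TCF7L2-223 had passed the filter of 0.5 FPKM in 3 samples through the OV-BRCA1 group, since 1 NC sample reached it. It was also lost with a pseudocount of 0.1, where the log2 fold change was 3.04, and without the filter on low values.

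The NC samples did not share one alternative to TCF7L2-223. TCF7L2-210 held 43.5% of the gene in NC replicate 2, TCF7L2-211 held 29.8% in NC replicate 1, and both held 10.2% in NC replicate 3. Transcripts were also grouped by whether they begin at the start codon of the longest coding transcript, a grouping made with the values known. The 12 TCF7L2 transcripts with that start codon summed to 4.98, 5.52 and 4.77 FPKM in the OV-BRCA1 samples and to 3.11, 7.92 and 3.77 FPKM in the NC samples. The 9 coding transcripts with another start summed to 0.460 to 0.600 FPKM in the OV-BRCA1 group and to 0.803 to 2.82 FPKM in the NC group. The groups overlapped for the first class and did not for the second, which was not tested.

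CTNNB1 divided over its transcripts unevenly within one group while the gene total did not move. CTNNB1-202 was at 51.8, 46.8 and 25.5 FPKM in the OV-BRCA1 samples and at 40.8, 41.3 and 44.1 FPKM in the NC samples. CTNNB1-201 was at 12.3, 13.9 and 29.99 FPKM against 15.6, 16.1 and 12.7 FPKM. OV-BRCA1 replicate 3 thus stood apart from the other 5 samples in both, in opposite directions, although both transcripts have the same coding length of 2343 bases. None of the 10 tested CTNNB1 transcripts was called by limma, and 1 had an unadjusted p below 0.05. This was CTNNB1-213, a transcript with a retained intron, at 0.988, 0.760 and 0.663 FPKM against 1.58, 1.81 and 1.55 FPKM. AXIN1-202 was at 11.8, 11.7 and 12.0 FPKM against 11.2, 10.3 and 10.8 FPKM, and TCF7L1-201 at 1.53, 1.64 and 1.48 FPKM against 2.64, 2.07 and 2.14 FPKM. Both pointed the way of their gene without overlap, and neither was called by itself (limma, Benjamini-Hochberg adjusted p = 0.465 and 0.206).

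**Figure D3:**
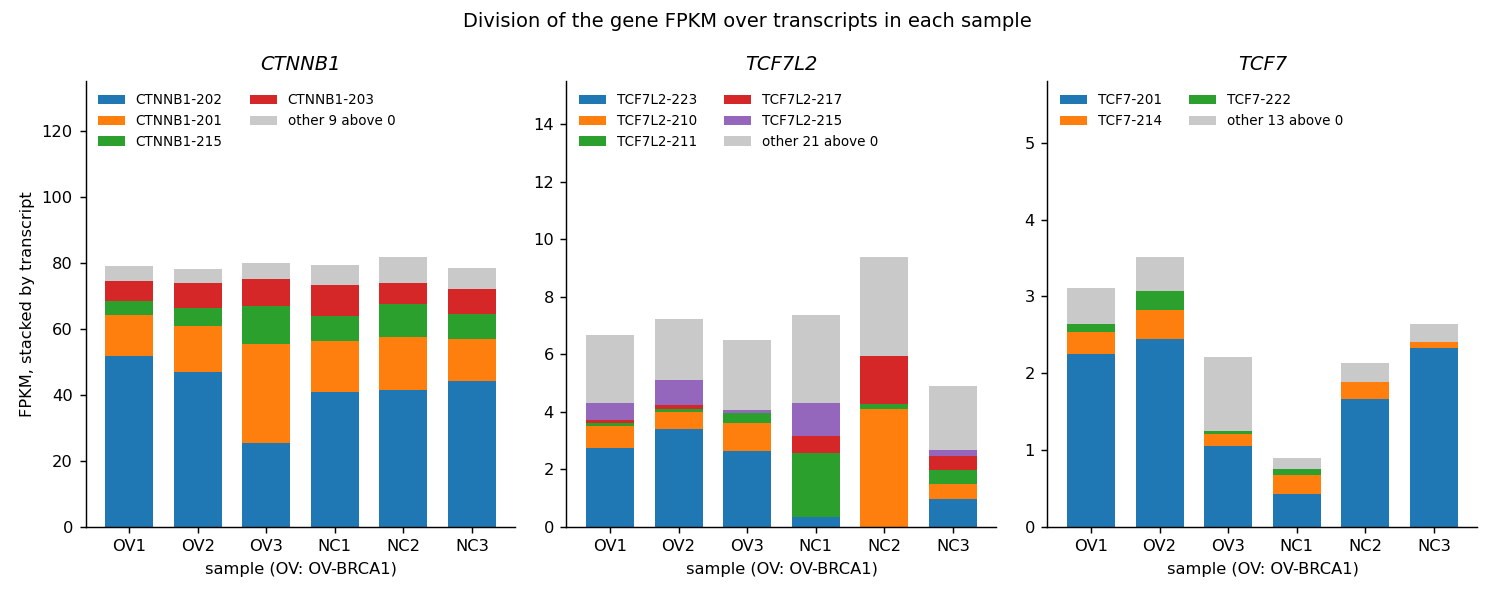
FPKM of CTNNB1, TCF7L2 and TCF7 in each of the 6 samples, stacked by transcript, with the most abundant transcripts in color and the rest in grey. TCF7L2-223 (blue, middle panel) holds 40.4% to 47.2% of the column in the OV-BRCA1 samples and 0% to 20% in the NC samples. CTNNB1 columns are level while OV-BRCA1 replicate 3 has less CTNNB1-202 and more CTNNB1-201.

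Of the feedback inhibitors, AXIN2 (ENSG00000168646, chromosome 17, 65528563 to 65561647, minus strand) encodes the inducible relative of AXIN1. It was at 0.060, 0.117 and 0.017 FPKM in the OV-BRCA1 samples and at 0.060, 0.019 and 0.068 FPKM in the NC samples, from 1.0 to 5.7 estimated fragments. NKD1 (ENSG00000140807, chromosome 16, 50548330 to 50649249, plus strand) encodes a protein that binds Dishevelled and dampens the signal. It was at 0.030, 0.031 and 0.021 FPKM in the OV-BRCA1 samples and at 0.011, 0.013 and 0.015 FPKM in the NC samples. AXIN2 overlapped between the groups, and its most abundant transcript, AXIN2-201, held from 4.9% to 100% of the gene. NKD1, whose whole value came from NKD1-201, did not overlap, but the nearest samples stood at 5.2 and 5.1 estimated fragments. Neither gene passed the filter of 0.5 FPKM in 3 samples, and no difference was detectable at this depth.

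RNF43 (ENSG00000108375, chromosome 17, 58352500 to 58417595, minus strand) encodes a ubiquitin ligase that removes Frizzled receptors from the cell surface. It was at 0.973, 0.817 and 0.812 FPKM in the OV-BRCA1 samples and at 0.554, 0.783 and 1.08 FPKM in the NC samples. The NC samples again enclosed the OV-BRCA1 samples. The log2 fold change was 0.06 with an interval from -0.25 to 0.36 (limma, Benjamini-Hochberg adjusted p = 0.753), on an estimated 49.5 to 85.1 fragments per sample. Without NC replicate 1 the log2 fold change was -0.045, and without NC replicate 3 it was 0.165. RNF43 shares 594 bases with SUPT4H1 on the same strand, which stood at 40.8 to 56.7 FPKM. Its most abundant transcript, RNF43-201, was at 0.759, 0.793 and 0.755 FPKM against 0.554, 0.762 and 0.701 FPKM and overlapped between the groups.

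DKK1 (ENSG00000107984, chromosome 10, 52314296 to 52318042, plus strand) encodes a secreted inhibitor that binds LRP5 and LRP6 and blocks the receptor. It was at 293.6, 291.5 and 290.0 FPKM in the OV-BRCA1 samples and at 223.9, 220.3 and 223.8 FPKM in the NC samples. The groups were far apart beside a spread of under 1% of the mean, at 292 ± 1.81 and 223 ± 2.07 FPKM (SD, n = 3), a ratio of 1.31. The log2 fold change was 0.39 (SE 0.035, 95% interval 0.30 to 0.47, limma, Benjamini-Hochberg adjusted p = 0.00051). DKK1 held its call in all 14 alternatives, with log2 fold changes of 0.35 (scaled to nuclear protein-coding genes) to 0.42 (scaled by the median of ratios). The size of the change was moderate, since 67.7% of all tested genes had a smaller absolute change.

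The main DKK1 transcript, DKK1-201, took 93.4% to 96.6% of the gene. It was at 281.5, 281.6 and 279.9 FPKM in the OV-BRCA1 samples and at 212.7, 206.2 and 209.0 FPKM in the NC samples. Its log2 fold change was 0.42 (SE 0.034, limma, Benjamini-Hochberg adjusted p = 0.00356). The non-coding DKK1-202, DKK1-203 and DKK1-204 overlapped between the groups and were not called. DKK1 shares 212 bases with PRKG1-AS1 on the opposite strand, which stood at 0.047 to 0.499 FPKM.

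DKK1 is the most abundant of the 10 genes and the one whose call held throughout, so the 250 bases before its RefSeq start are shown (GRCh38.p14, chr10:52314031-52314280, plus strand). Capitals mark the match to a TCF/LEF motif, searched as CTTTGAT and CTTTGAA on both strands.
DKK1: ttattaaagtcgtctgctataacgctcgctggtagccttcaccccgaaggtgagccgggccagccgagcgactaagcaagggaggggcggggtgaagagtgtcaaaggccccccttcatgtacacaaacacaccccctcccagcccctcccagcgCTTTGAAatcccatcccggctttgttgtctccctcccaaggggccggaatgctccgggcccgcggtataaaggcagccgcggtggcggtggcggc
The match lies from 95 to 89 bases before the start (chromosome 10, 52314186 to 52314192). Among windows from 250 bases before to 50 bases after a start, 2409 of 35116 (6.86%) held the motif. The table had 12 such windows for 8 of the 10 genes, and 1 of the 12 held a match. A match describes the letters of the window and does not show that a factor binds there.

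As a description over 6 samples, the genes whose log2(FPKM + 1) followed DKK1 most closely were TNFRSF21, BST2 and SERPINB2, each with a Pearson's r of 1.00. All 3 were higher in every OV-BRCA1 sample than in every NC sample, as DKK1 was, which follows from the way they were picked. SERPINB2 had passed the filter of 0.5 FPKM in 3 samples through the OV-BRCA1 group alone, with at most 0.499 FPKM in the NC group. In all, 1524 tested genes had an r over 0.95 with DKK1. CTNNB1, which did not follow the groups, had 19 such genes, led by METTL27 (r = 0.98), TCEAL9 (r = 0.98) and BMS1P4 (r = 0.98), all highest in NC replicate 2.

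Around these genes, 78 further genes of the pathway were grouped by role. Of these 56 were tested, 10 were called higher and 13 lower, and the median log2 fold change was -0.03. The share called, 23 of 56, lay close to that of all tested genes (35.3%).

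The 12 genes of the destruction complex and its regulators were all tested, with 1 higher, 1 lower and a median log2 fold change of 0.10. Among all tested genes 35.3% were called in either direction. The list held 1 to 3 called genes in the alternatives. CSNK1A1, the kinase CK1 alpha that places the priming phosphate on beta-catenin, was at 30.2, 29.97 and 31.7 FPKM against 18.4, 18.6 and 18.4 FPKM. The groups were well apart, and its log2 fold change was 0.70 (limma, Benjamini-Hochberg adjusted p = 0.000219). CSNK1D, another CK1 kinase, was at 51.4 to 53.0 FPKM against 58.8 to 64.3 FPKM and fell by 0.22 (limma, Benjamini-Hochberg adjusted p = 0.0172). TNKS2, a tankyrase that marks AXIN for degradation, was at 12.98 ± 0.203 against 11.8 ± 0.339 FPKM, and APC2, a relative of APC, at 1.73 ± 0.158 against 1.12 ± 0.593 FPKM (SD, n = 3), and neither was called.

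Of 13 co-receptors, relays and secretion genes 9 were tested, with 2 higher, 1 lower and a median of -0.07. This lies close to the 35.3% of all tested genes that were called in either direction. RSPO3, a secreted enhancer that keeps RNF43 and its relative ZNRF3 from removing receptors, was at 3.23, 3.07 and 2.88 FPKM against 0.909, 1.10 and 1.26 FPKM. The groups did not overlap, with a ratio of the means of 2.80. On the log2(FPKM + 1) scale, which shrinks the change of a gene at this level, the log2 fold change was 0.96 (limma, Benjamini-Hochberg adjusted p = 0.000828). LRP5, the co-receptor that DKK1 binds, was at 21.2 to 22.0 FPKM against 16.7 to 17.3 FPKM and rose by 0.32, and DVL2, a Dishevelled relay, was at 21.8 to 23.9 FPKM against 28.5 to 33.2 FPKM and fell by 0.39. WLS, which carries WNT ligands to the surface, was at 38.7 ± 7.94 against 31.4 ± 3.89 FPKM (SD, n = 3) and was not called.

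All 15 nuclear partners of beta-catenin and the TCF factors were tested, with 1 higher, 6 lower and a median of -0.03. Among all tested genes 18.9% were called lower and 35.3% in either direction. The 6 lower genes were PYGO2, TLE2, TLE3, CTBP1, CBY1 and CTNNBIP1. Of the same list, TLE1 (log2 fold change 0.26), CTBP2 (0.14) and AES (-0.09) were not called. TLE3, CTBP1, CTNNBIP1, TLE1, CTBP2 and AES were named with their values known, and no group of them was tested by role. TLE2, a Groucho co-repressor, was at 6.15, 4.16 and 3.43 FPKM against 10.3, 8.67 and 12.2 FPKM, did not overlap and was the one DEG of the list (log2 fold change -1.05, limma, Benjamini-Hochberg adjusted p = 0.00935). CBY1, which binds beta-catenin and keeps it from TCF factors, was at 16.4 to 18.0 FPKM against 25.04 to 27.4 FPKM and fell by 0.58, and PYGO2, a co-activator of beta-catenin, was at 10.3 to 11.45 FPKM against 13.4 to 14.9 FPKM and fell by 0.37. TLE4, another Groucho co-repressor, was at 1.23, 2.14 and 1.53 FPKM against 0.460, 0.668 and 0.547 FPKM and rose by 0.74 (limma, Benjamini-Hochberg adjusted p = 0.00967). As 2 of the 3 NC samples reached 0.5 FPKM, it had passed the filter with the help of the OV-BRCA1 group, where it was high. The ratio of the means was 2.925 for TLE4 and 0.441 for TLE2. The log2(FPKM + 1) scale shrinks the change of TLE4, the weaker gene, more.

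The secreted antagonists other than DKK1 were mostly silent. Of 12 antagonists and co-receptors 10 were under 1 FPKM in all samples, 3 were tested and none was called by limma, with 0 at an unadjusted p below 0.05 and 0 called in the alternatives. DKK3 was at 0.570 ± 0.174 against 0.628 ± 0.0864 FPKM. KREMEN1 and KREMEN2, the receptors through which DKK1 clears LRP5 and LRP6, were at 3.04 ± 0.325 against 3.62 ± 0.576 FPKM and at 1.09 ± 0.194 against 1.41 ± 0.391 FPKM (SD, n = 3).

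Of 19 other feedback and target genes 13 were tested, with 6 higher, 2 lower and a median of 0.24, and 7 were under 1 FPKM in all samples. Among all tested genes 16.4% were called higher and 35.3% in either direction. NOTUM, a secreted enzyme that inactivates WNT ligands and a feedback gene, was at 4.37, 3.99 and 4.14 FPKM against 8.99, 8.99 and 10.8 FPKM and was a DEG without overlap (log2 fold change -1.03, limma, Benjamini-Hochberg adjusted p = 0.000512). NKD2, the relative of NKD1, was at 1.06, 0.933 and 0.860 FPKM against 0.270, 0.280 and 0.416 FPKM and rose by 0.56 (limma, Benjamini-Hochberg adjusted p = 0.0054). It had passed the filter through the OV-BRCA1 samples alone and was named after its values had been seen. EPHB2, a receptor of ephrins and an intestinal target, was at 3.58 to 4.58 FPKM against 1.62 to 2.35 FPKM and rose by 0.77. The cyclin gene CCND1 was at 4.30, 4.74 and 4.13 FPKM against 0.641, 0.744 and 0.601 FPKM, and FOSL1, an AP-1 subunit, at 68.2, 74.4 and 92.8 FPKM against 20.5, 13.5 and 17.4 FPKM, with log2 fold changes of 1.70 and 2.14.

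Beta-catenin also joins cadherins to the cytoskeleton, and of 7 cadherins and catenins of the adherens junction 4 were tested, with 3 lower, none higher and a median of -0.28. CTNNA1, alpha-catenin, was at 105.0, 110.5 and 111.0 FPKM against 144.0, 130.1 and 142.9 FPKM. The groups did not overlap, and it fell by 0.35 (limma, Benjamini-Hochberg adjusted p = 0.00465). JUP, plakoglobin and the closest relative of beta-catenin, was at 54.6 to 62.7 FPKM against 72.0 to 74.7 FPKM and fell by 0.32, and CTNND1, p120-catenin, was at 26.6 to 30.9 FPKM against 31.9 to 35.3 FPKM and fell by 0.24, close to the threshold (limma, Benjamini-Hochberg adjusted p = 0.0445). The list held 2 or 3 called genes in the alternatives, and 18.9% of all tested genes were called lower. CDH1, E-cadherin, was at 0.896, 0.864 and 0.418 FPKM against 0.421, 0.170 and 0.714 FPKM, overlapped and was not called. CTNNB1 was not called, and its difference from the other catenins was not tested.

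**Figure D4:**
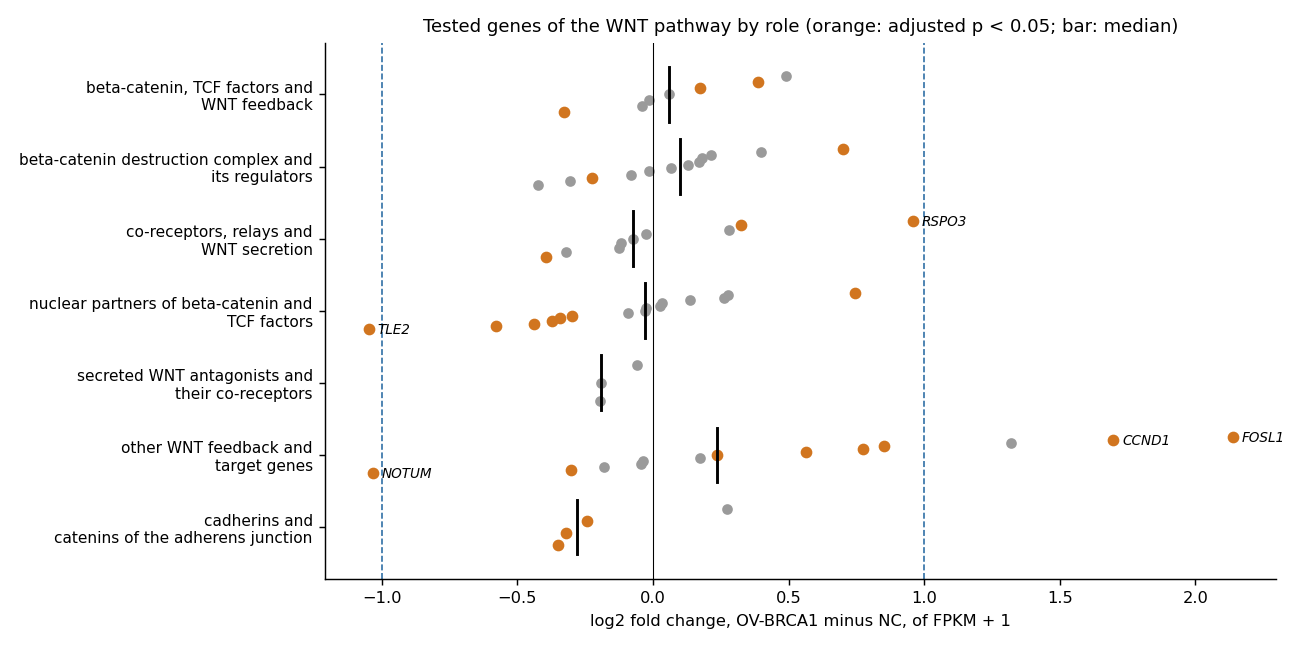
Log2 fold change (OV-BRCA1 minus NC, of FPKM + 1) of each tested gene by role, with called genes in orange, others in grey and a bar at the median of each group of genes. Dashed lines mark the fold change of the DEG criterion. The medians lie between -0.28 and 0.24, and CCND1 (1.70), FOSL1 (2.14), TLE2 (-1.05) and NOTUM (-1.03) are the called genes beyond the dashed lines, while a grey point beyond them was not called.

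How far the calls depend on the settings differed between the genes. DKK1 kept an adjusted p-value of 0.000354 to 0.00813 in all alternatives. AXIN1, TCF7L1 and TCF7L2-223 crossed 0.05 in 9 of 14, 9 of 14 and 8 of 13 alternatives, so their calls depend on the settings and samples used.

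**Figure D5:**
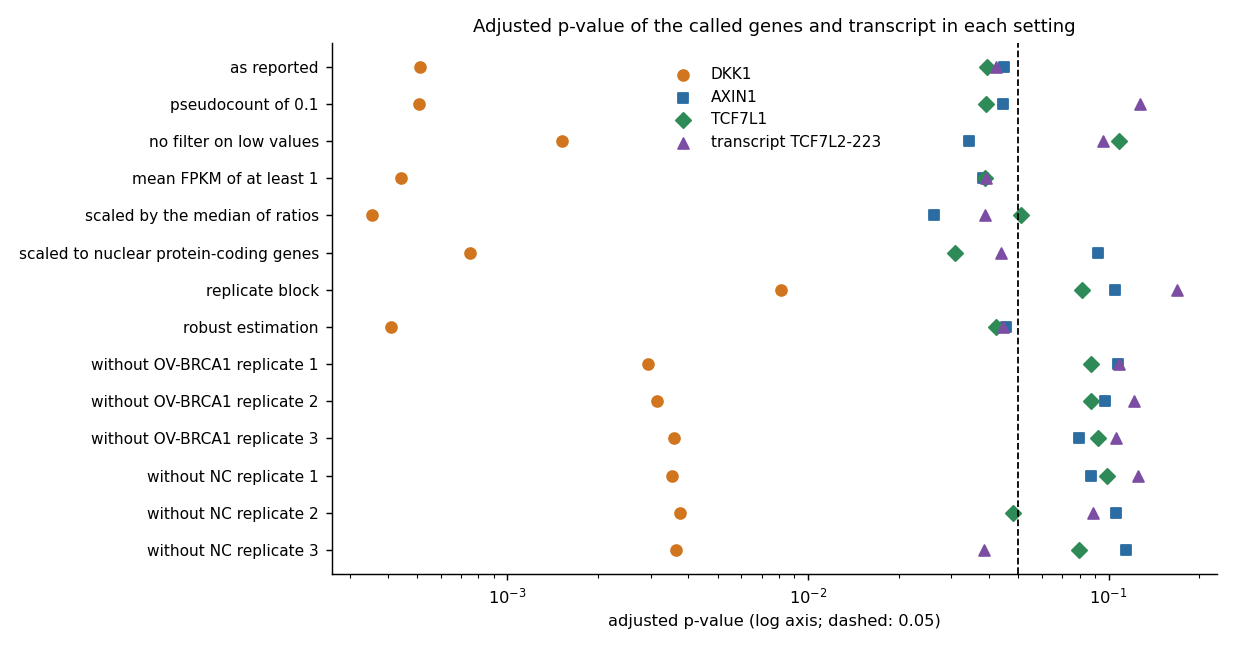
Adjusted p-value (limma with Benjamini-Hochberg adjustment, log axis) of DKK1, AXIN1, TCF7L1 and the transcript TCF7L2-223 as reported and in each other setting, with a dashed line at 0.05. DKK1 lies at 0.00813 or lower in every row, and the other 3 lie on both sides of the line.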

How the data were processed

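mRNA was sequenced in 6 samples, 3 per group, which the study describes as biological replicates. The authors deposited FPKM values for 199167 transcripts. The submitters' processing notes name FastQC, HISAT2 and the build hg38, without versions. The quantification tool, the annotation and the use of strand were not given in the sources used here, so reads of overlapping genes and of transcripts that share exons may have been split in an unknown way. Counts were not analysed here. Sample files and the series table held the same values, and no column was left unassigned.

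Transcript FPKM was summed per gene. Names and positions came from GENCODE 29 (GRCh38), which held 198868 of the transcripts. Genes and transcripts with at least 0.5 FPKM in at least 3 samples were tested on log2(FPKM + 1) with limma 3.58.1 in R 4.3.3 (moderated test with trend, all 6 samples, group only, Benjamini-Hochberg over all features tested). The test was checked on simulated data. Promoter windows came from RefSeq (GRCh38.p14). Depth was estimated from the FPKM worth of 1 fragment in 14223 genes with 1 transcript. Of the low values 29.3% to 34.7% were whole fragments within 0.1. Whole reads could therefore not be recovered, and the fragment numbers are estimates that cover counting error only.

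Named were the 10 genes, the genes of each list past both criteria and up to 4 a list with the lowest adjusted p, the top transcript of each gene and every called transcript, and 3 genes most like CTNNB1 and DKK1. NKD2, SP5, MYC, TLE1, TLE3, AES, CTBP1, CTBP2 and CTNNBIP1 were added after their values had been seen. So were SKP1 and the other overlapping genes, further transcripts of TCF7L2 and CTNNB1 and the start codon classes. The genes and lists were chosen with earlier results of these data known. Alternatives were a pseudocount of 0.1, no filter, a mean of at least 1 FPKM, scaling by the median of ratios or to nuclear protein-coding genes, robust estimation, leaving out each sample, a replicate block and the most abundant transcript in place of the gene. The rest used pandas 2.3.3, numpy 2.4.6 and matplotlib 3.10.9 under Python 3.11.15. A marker of one list is not reported here.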

Additional observations from a re-analysis of the deposited data

How the results depend on the processing

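The number of called genes among the 10 was 3 with a pseudocount of 0.1, with the mean filter and with robust estimation. It was 2 without a filter (AXIN1 and DKK1), with the median of ratios (AXIN1 and DKK1) and with scaling to nuclear protein-coding genes (TCF7L1 and DKK1), and 1 to 2 with a sample left out. Among all tested genes, 5764 were called, and 4415 to 5845 in the alternatives. Genes past the fold change as well numbered 651, and 1280 with a pseudocount of 0.1. Called transcripts numbered 2788, but 1508 without a filter and 1068 to 1445 with a sample left out, where fewer samples carried the fit. The sign of the log2 fold change turned for CTNNB1, TCF7L2 and RNF43, none of which was called as a gene. CTNNB1 was at 0.022 with the median of ratios and at -0.028 to 0.003 with a sample left out, positive without NC replicate 2. TCF7L2 was at -0.261 to 0.149 with a sample left out, positive without NC replicate 2, and its most abundant transcript was at 1.49. RNF43 was at -0.045 to 0.165 with a sample left out, negative without NC replicate 1. The cause was not tested. Of the destruction complex list, 1 gene was called without OV-BRCA1 replicate 3 and 3 at most with another sample left out.

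The replicate numbers do not pair the samples. Deviations of same-numbered samples from their group means correlated at -0.024, 0.025 and 0.014, so they share only a number. With the replicate block, 4595 genes and 249 transcripts were called, and 1 of the 10 genes, DKK1 (adjusted p = 0.00813), while DKK1-201 was not (adjusted p = 0.0807, limma with Benjamini-Hochberg adjustment). Depth limited AXIN2, LEF1 and NKD1, which rest on at most 8.8 estimated fragments in a sample.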
